A study of Mus musculus with 121 samples.

Results

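The genes described here are 10 genes of the endoplasmic reticulum (ER) and of the unfolded protein response: Hspa5, Hsp90b1, Calr, Pdia4, Pdia6, Dnajb9, Sdf2l1, Creld2, Manf and Herpud1. They were chosen by name, by matching the Ensembl identifiers of the count tables to mouse symbols, and they are 10 of the 31053 genes listed. All 10 passed the filter of 1 CPM (counts per 1000000 counts of the library) in at least 3 libraries and were among the 13292 genes tested. The RNA came from an immortalized ear fibroblast line of a knockin mouse with a luciferase reporter on the clock gene Per2 (Per2::Luc), expanded to passage 25, and it was sequenced by 3′DGE, in which a read comes from the 3′ end of a transcript so that a count does not grow with transcript length. In HL the cells received medium high in glucose and insulin (H) for 12 h and then medium low in both (L) for 12 h, in LH the order was inverted, and in HH the H medium was renewed every 12 h. After 3 such cycles of 24 h and 12 h of free running, per the study's text, RNA was taken in 6 collections 4 h apart, given below as 0 h to 20 h from collection 1 by the collection number in the sample titles. The titles also carry an hour that does not follow this order: from collection 1 to 6 it is 20, 12, 4, 8, 12 and 16 in HL and HH and 20, 12, 16, 20, 12 and 16 in LH. Collections 3 and 4 of LH thus stand here at 8 h and 12 h beside those of HL and HH under another hour, and which of the 2 labels holds the true time is not given in the sources used here. HL had 21 libraries, LH had 22 and HH had 19, and each of the 18 groups of treatment and collection held 2 to 4 of them. The study's methods call its replicates biological in general, but the labels do not say which libraries of a group came from separate cultures, so the p-values measure the spread between these libraries, which may be partly technical, and all libraries share 1 cell line.

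The libraries held 104912 to 11619095 counts. The library with 104912 counts, LH collection 2 replicate 2, stands apart: the next lowest total was 2136819, and its 7 immune cell markers summed to 505 CPM (53 counts) against 10.1 to 39.8 CPM in the other libraries. It was left out of every correlation over libraries and of the values named as such. The comparison of replicate numbers, given at the end, includes it. The fibroblast markers Col1a1, Col3a1, Vim, Pdgfra and the 8 others of their list of 12 were above 0 in each of the 62 libraries, while Krt5 and Krt1 of the 8 keratinocyte markers and Myod1 and Ckm of the 6 muscle markers were at 0 in each. Of the same lists, Trp63 was above 0 in every library (0.65 to 11.5 CPM), Cdh1 was at 0 in 2 libraries, Krt10 in 5 and Acta1 in 24, with medians of 1.46, 0.76 and 0.18 CPM. Kdr (median 177 CPM) and Sox9 (median 513 CPM), which were on the endothelial and chondrocyte lists, were also expressed. The treatment and collection of a library were read from the sample titles. The read summary of the study gives another name to 40 libraries under the same library number or does not list them (HL 18, LH 22, HH 0), so the values of HL and LH were also computed by library number, where 57 libraries had a name (19 in each treatment). The CPM of HH libraries do not depend on this choice.

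Proteins that enter the secretory pathway are folded in the ER by a set of resident chaperones, and fibroblasts that secrete collagen keep these at high levels. When unfolded proteins accumulate, the sensors ATF6, IRE1 (Ern1) and PERK (Eif2ak3) start the unfolded protein response: cleaved ATF6 and spliced XBP1 raise the genes of chaperones and of ER-associated degradation (ERAD), and PERK slows translation and raises ATF4, whose targets serve amino acid supply and stress adaptation. Hspa5 (BiP) is the HSP70 of the ER, Hsp90b1 (GRP94) its HSP90 and Calr (calreticulin) a calcium-binding lectin chaperone of glycoproteins. Pdia4 and Pdia6 are protein disulfide isomerases. Dnajb9 (ERdj4) is a J-domain cofactor of BiP, Sdf2l1 is a partner of ER J-proteins that keeps BiP clients soluble, and Creld2 and Manf are ER stress proteins that can be secreted. Herpud1 is a membrane component of the ERAD complex around the ligase HRD1.

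The ER stress response element (ERSE), which NF-Y and ATF6 are known to bind, was searched for in the RefSeq promoters of these genes (GRCm38.p6, 250 bases before to 50 after the start), because most of the 10 genes are known as targets of ATF6 or XBP1. Of the 10 genes, 9 matched the promoter table and Manf did not. The letters CCAAT followed after 9 bases by CCACG, on either strand, were found in 5 of the 9 promoters (Hspa5, Hsp90b1, Calr, Pdia6 and Creld2) and in 39 of all 32851 promoters (0.119%). The second form of the element, ATTGG followed after 1 base by CCACG, was found in Herpud1 alone of the 9 and in 12 of all promoters (0.0365%). Herpud1 was also the 1 member with the letters TGATGCAA, a site of ATF4 and C/EBP dimers that stands in 0.895% of promoters. The XBP1 site TGACGTGG was in none of the 9 (0.676% of promoters), the E-box CACGTG, the site of CLOCK and BMAL1, was in Calr and Dnajb9 (7.15% of promoters), and CCAAT, which is part of the ERSE and the reverse strand of which is part of the second form, was in 9 of 9 (37.4% of promoters). A match is a description of the letters, and binding was not measured. The stretches around these elements are printed below with the gene's own strand as the strand, and the capitals mark the ERSE, the second form of it and, first in Herpud1, the ATF4 site.
Hspa5, chr2:34772013-34772055, + strand: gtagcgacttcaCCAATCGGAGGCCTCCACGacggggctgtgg
Hsp90b1, chr10:86705521-86705668, - strand: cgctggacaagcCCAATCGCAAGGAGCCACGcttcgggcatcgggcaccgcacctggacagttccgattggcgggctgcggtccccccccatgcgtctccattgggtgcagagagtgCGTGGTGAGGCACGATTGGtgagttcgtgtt
Calr, chr8:84847063-84847105, - strand: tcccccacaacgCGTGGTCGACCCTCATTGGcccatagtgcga
Pdia6, chr12:17266479-17266521, + strand: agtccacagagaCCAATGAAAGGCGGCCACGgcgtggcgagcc
Creld2, chr15:88819508-88819550, + strand: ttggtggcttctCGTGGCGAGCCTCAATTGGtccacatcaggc
Herpud1, chr8:94386305-94386399, + strand: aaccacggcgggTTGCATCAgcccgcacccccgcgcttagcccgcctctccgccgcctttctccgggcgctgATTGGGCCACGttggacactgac
In Hspa5 the element lay at bases -65 to -47 from the start. In Hsp90b1, the promoter that holds 2 of them, they lay at -212 to -194 and, on the other strand, at -107 to -89.

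The first question was whether the mean level of these genes over the time course differed between the feeding orders. It did not pass the test for any of the 10 genes in any of the 3 comparisons: 0 of 10 genes had an adjusted p under 0.05 (edgeR's quasi-likelihood test, Benjamini-Hochberg adjustment over 13292 genes), and the share of all genes called was 0% for LH against HL, 0% for HH against HL and 0% for HH against LH. DESeq2 called 0 of the 10 as well and 0% of all genes in each comparison, but for HH against HL it gave an adjusted p to 2209 genes alone, 6 of the 10 members among them. The 3 comparisons share their libraries pairwise. At an unadjusted p under 0.05, 0, 1 and 0 of the 10 genes passed, against 5.69%, 7.41% and 5.23% of all genes tested. The fitted differences were small: the log2 fold changes of the 10 genes ranged from -0.04 to 0.18 for LH against HL (7 positive and 3 negative, median 0.05, median of all genes 0.0013), from -0.13 to 0.18 for HH against HL (5 and 5, median 0.03, median of all genes 0.0023) and from -0.13 to 0.09 for HH against LH (5 and 5, median -0.01, median of all genes 3.97e-05). The 95% intervals of these differences lay within -0.42 and 0.41 on the log2 scale, and the bound farthest from 0 was a 1.34-fold difference. Because RNA was measured in bulk, less RNA of a gene per cell and fewer cells that express it cannot be told apart.

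**Figure D1:**
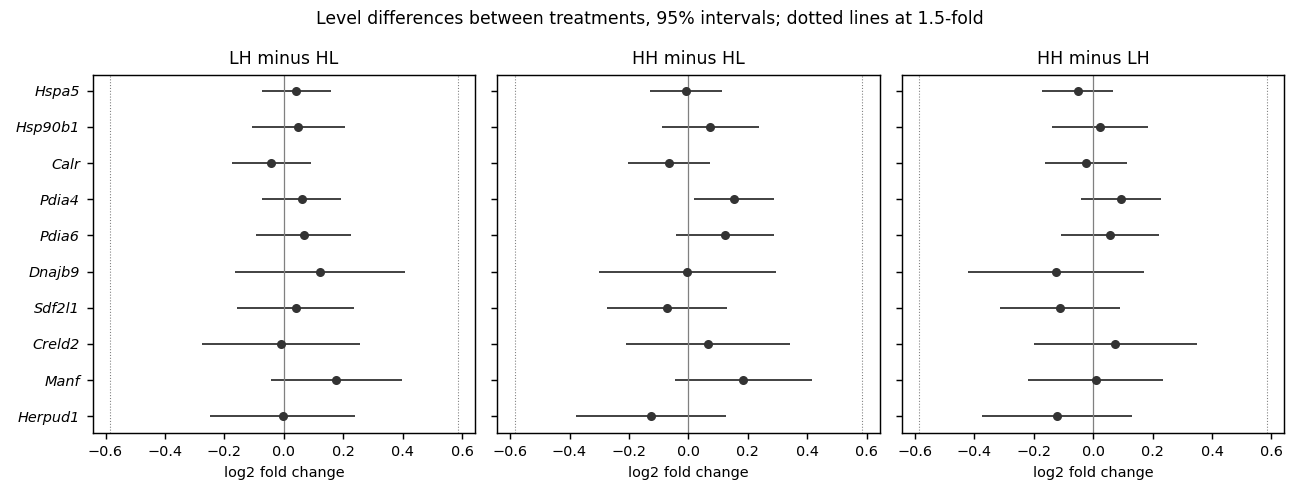
Fitted log2 fold changes (x axis) of the 10 genes (y axis) for LH minus HL, HH minus HL and HH minus LH; points are estimates of edgeR's quasi-likelihood fit over 62 libraries, bars are 95% intervals and dotted lines mark 1.5-fold. No bar reaches a dotted line, and 1 bar, that of Pdia4 for HH minus HL, lies on 1 side of 0 (0.02 to 0.29).

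Gene positions are those of GENCODE M21 on GRCm38. Among the chaperones, Calr (ENSMUSG00000003814, chr8:84841850-84846934, - strand) was the most abundant, with 870.1, 1186 and 1726 CPM as the lowest, median and highest library of HL, 867, 1224 and 1558 CPM in LH and 867, 1235 and 1438 CPM in HH. Hsp90b1 (ENSMUSG00000020048, chr10:86690209-86705509, - strand) had 522, 889 and 1228 CPM in HL, 545, 964 and 1286 CPM in LH and 492, 988 and 1237 CPM in HH. Hspa5 (ENSMUSG00000026864, chr2:34771970-34777547, + strand) had 654, 797 and 996 CPM in HL, 545, 823 and 1039 CPM in LH and 508, 823 and 953 CPM in HH. The ranges of the 3 treatments overlapped along most of their length for each of these chaperones. The means were 789.9 ± 82.7 CPM (SD, n = 21) for Hspa5 in HL, 835 ± 105 CPM (n = 22) in LH and 821 ± 87.1 CPM (n = 19) in HH, and the log2 fold change of LH against HL was 0.04 with a 95% interval of -0.07 to 0.16. For Calr the 3 means were 1217 ± 229.5, 1211 ± 144 and 1213 ± 140.1 CPM (n = 21, 22 and 19).

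The disulfide isomerases were expressed at a lower level. Pdia4 (ENSMUSG00000025823, chr6:47796141-47813430, - strand) had 149, 188 and 223.1 CPM as the lowest, median and highest library of HL, 128, 211 and 246.9 CPM in LH and 134, 218 and 279.6 CPM in HH. Collection by collection, every HH library was above every HL library at 4 h (HL up to 204 CPM, HH from 222.5 CPM), at 8 h (199 and 212 CPM), at 12 h (192 and 208 CPM) and at 16 h (187 and 221 CPM), in groups of 2 to 4 libraries, while the groups overlapped at 0 h and at 20 h, where 2 HH libraries at 134 and 139 CPM lay below every library of HL. How many of all genes stand apart in this way was not counted, and 7.41% of them had an unadjusted p under 0.05 in this comparison (edgeR). The log2 fold change of Pdia4 for HH against HL was 0.15 (SE 0.07, 95% interval 0.02 to 0.29), the 1 difference of the 10 genes with an unadjusted p under 0.05 (edgeR adjusted p = 0.637). By library number it was 0.06 (SE 0.07, edgeR), and HL and HH then stood apart at 4 h alone (HL up to 221.8 CPM, HH from 222.5 CPM). HH against LH was 0.17 under that naming (SE 0.07, edgeR adjusted p = 0.383). Pdia6 (ENSMUSG00000020571, chr12:17266545-17284770, + strand) had 56.3, 135 and 200 CPM in HL, 102, 155 and 212 CPM in LH and 110, 156 and 212 CPM in HH, and its log2 fold change for HH against HL was 0.12 (95% interval -0.04 to 0.29).

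Of the cofactors and secreted stress proteins, Manf (ENSMUSG00000032575, chr9:106838312-106891979, - strand) had the largest fitted differences. It had 18.9, 55.8 and 83.8 CPM as the lowest, median and highest library of HL, 39.0, 65.1 and 113 CPM in LH and 27.5, 66.9 and 107 CPM in HH. The log2 fold change was 0.18 (SE 0.11, 95% interval -0.05 to 0.40) for LH against HL and 0.18 (95% interval -0.04 to 0.41) for HH against HL, and both intervals include 0. By library number the first was -0.19 (SE 0.11), the opposite sign. The Manf gene model overlaps Rbm15b on the same strand (55.3 CPM on average) and Dcaf1 on the opposite strand (41.9 CPM), and whether counting used strand is not given in the sources used here, so reads of these genes may not be fully separated. Sdf2l1 (ENSMUSG00000022769, chr16:17130138-17132383, - strand) had 15.4, 24.6 and 34.8 CPM in HL, 15.9, 27.8 and 38.6 CPM in LH and 8.26, 25.3 and 39.9 CPM in HH. Its log2 fold change for LH against HL was 0.04 (SE 0.10) by titles and -0.30 (SE 0.09, edgeR adjusted p = 0.531) by library number. Under that naming 0 members and 0.0152% of 13198 genes were called for LH against HL, 0 members and 0.00758% for HH against HL, and 0 members and 0.0227% for HH against LH.

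Dnajb9 and Creld2 were the genes of lowest level. Dnajb9 (ENSMUSG00000014905, chr12:44205559-44210326, - strand) had 10.6, 17.1 and 34.5 CPM in HL, 9.53, 19.1 and 45.0 CPM in LH and 7.16, 18.9 and 35.7 CPM in HH. Creld2 (ENSMUSG00000023272, chr15:88819646-88826683, + strand) had 4.13, 12.5 and 22.3 CPM in HL and 6.60, 11.9 and 27.1 CPM in HH. In LH it was 0 in the library with 104912 counts and 8.41 to 20.2 CPM (median 12.1) in the others. Herpud1 (ENSMUSG00000031770, chr8:94386438-94395377, + strand) had 71.4, 110.2 and 196 CPM in HL, 68.0, 105 and 215 CPM in LH and 75.4, 111 and 171 CPM in HH. The lowest and the median library of Herpud1 were alike in the 3 treatments, and the treatments differed mostly in how far their highest libraries reached. The order of the mean levels over all libraries was Calr, Hsp90b1, Hspa5, Pdia4, Pdia6, Herpud1, Manf, Sdf2l1, Dnajb9 and Creld2, from 1213 CPM for Calr to 12.3 CPM for Creld2, and the library ranges of neighbours in this order overlapped except those of Hspa5 (from 508 CPM) and Pdia4 (up to 279.6 CPM).

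**Figure D2:**
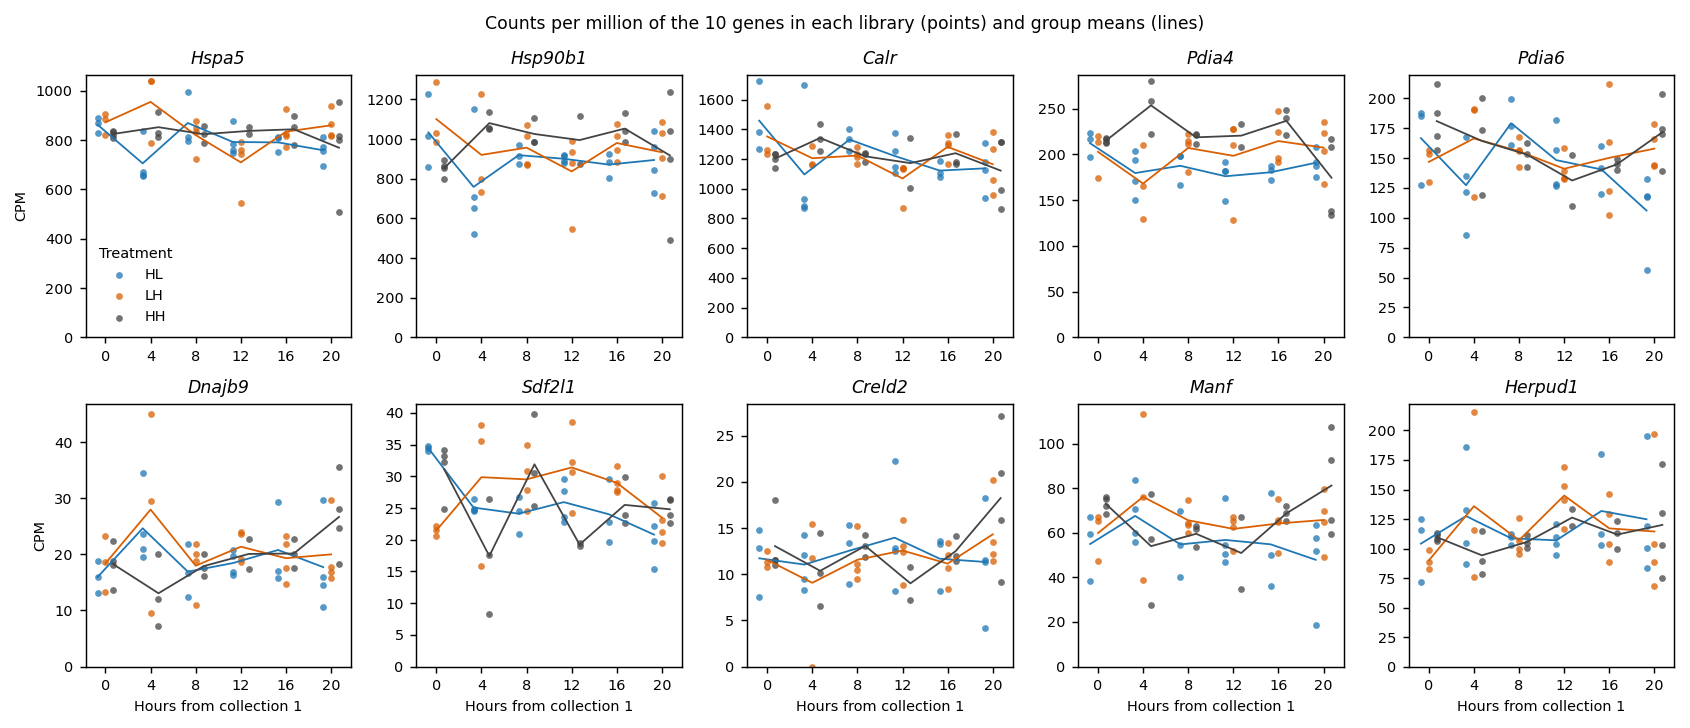
CPM (y axis, from 0) of each of the 10 genes against hours from collection 1 (x axis), in 62 libraries; points are libraries of HL (blue), LH (orange) and HH (grey), shifted sideways for clarity, and lines join group means of 2 to 4 libraries. The libraries of the 3 treatments overlap in each collection for Dnajb9 and Creld2. HL lies below HH at 4, 8, 12 and 16 h for Pdia4 (by library number at 4 h alone). How many of all genes do so was not counted. Single libraries, such as the HH library at 20 h with 508 CPM of Hspa5 and 492 CPM of Hsp90b1, depart further than the group means do.

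The second question was whether the genes moved over the 6 collections. None of the 10 genes passed with the treatments together, where edgeR called 219 of 13292 genes (1.65%), nor within HL (40 genes, 0.301%), within LH (390 genes, 2.93%) or within HH (39 genes, 0.293%), nor in the test of different time courses between treatments (17 genes, 0.128%). JTK_CYCLE, a rank test for 24 h waves run within 1 treatment at P under 0.01, called 0 of the 10 in HL (0.474% of all genes), in LH (0.918%) and in HH (1.25%). At an unadjusted p under 0.05 the numbers were 0 of 10 with the treatments together (13.3% of all genes), 1 within HL (8.98%), 2 within LH (16.9%), 3 within HH (8.61%) and 4 for different time courses (11.6%). DESeq2 called Hspa5 within LH, where it called 5.8% of all genes, and Sdf2l1 for different time courses (1.63% of all genes). It called none of the 10 with the treatments together (3.33%), within HL (0.939%) or within HH (1.19%). The smallest JTK P of the 10 genes were 0.321 for Pdia4 in HL, 0.061 for Hspa5 in LH and 0.098 for Dnajb9 in HH.

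Sdf2l1 had the smallest p of the 10 genes. In HH it was 24.9, 32.3, 33.2 and 34.1 CPM at 0 h, 8.26, 17.7 and 26.4 CPM at 4 h and 25.3, 30.5 and 39.9 CPM at 8 h. It was then 19.1 and 19.4 CPM at 12 h, 22.7, 23.9 and 29.9 CPM at 16 h and 22.7, 23.9, 26.3 and 26.4 CPM at 20 h. The 2 libraries at 12 h lay below every library at 0 h and at 8 h, and those at 4 h were far apart. Within HH the p was 0.0025 (edgeR, adjusted p = 0.205), and for different time courses between the treatments it was 0.0018 (edgeR, adjusted p = 0.192). By titles, the HL libraries at 0 h (34.0, 34.5 and 34.8 CPM) were above those of LH (20.6, 21.5 and 22.2 CPM). By library number the same HL libraries stood at 0 h, the LH libraries at 0 h were 24.6, 26.4 and 26.8 CPM, and the p for different time courses was 0.087 (edgeR, adjusted p = 0.910).

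Hspa5 had its smallest p in LH, where it was 822, 887 and 907 CPM at 0 h, 787, 1038 and 1039 CPM at 4 h and 722, 831, 849 and 877 CPM at 8 h. It was 545, 742, 760 and 791 CPM at 12 h, 771, 816, 824 and 925 CPM at 16 h and 816, 819, 867 and 936 CPM at 20 h. The libraries at 12 h were low, with 1 at 545 CPM. The mean was 955 ± 145 CPM (SD, n = 3) at 4 h, where the library of 1039 CPM is that of 104912 counts, and 709 ± 111 CPM (n = 4) at 12 h, a ratio of 1.35. However, the highest library at 12 h (791 CPM) exceeded the lowest at 4 h (787 CPM), and the p within LH was 0.015 (edgeR, adjusted p = 0.165). By library number it was 0.120 (edgeR). In HH the group means of Hspa5 spanned a ratio of 1.11, from 769 to 852 CPM.

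Pdia4 in HH was 212, 214, 216 and 218 CPM at 0 h, 222.5, 258.3 and 279.6 CPM at 4 h and 134, 139, 208 and 217 CPM at 20 h. The 4 libraries at 20 h lay below the 3 at 4 h, and the ratio of the means was 1.45 (within HH edgeR adjusted p = 0.384). Dnajb9 in HH went the other way, with 7.16, 12.1 and 20.0 CPM at 4 h and 18.4, 24.6, 28.1 and 35.7 CPM at 20 h. These groups overlapped, the ratio of the means was 2.04, and the p within HH was 0.036 (edgeR, adjusted p = 0.514). In LH, Dnajb9 was 29.5 and 45.0 CPM in the deep libraries at 4 h and 9.53 CPM in the library with 104912 counts, which is a single count there (within LH edgeR adjusted p = 0.171). Creld2 and Manf in HH had their highest group means at 20 h, 18.3 ± 7.6 and 81.2 ± 22.7 CPM (n = 4), and their lowest at 12 h, 9.01 ± 2.52 and 51.0 ± 22.6 CPM (n = 2), with a p within HH of 0.054 and 0.078 (edgeR, adjusted p = 0.588 and 0.644). These values at 20 h share libraries. Replicate 3 had 134 CPM of Pdia4, 35.7 CPM of Dnajb9, 20.9 CPM of Creld2 and 107 CPM of Manf. Replicate 2 had 139, 24.6, 27.1 and 92.6 CPM of the same genes.

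Pdia6 depended on the naming of the libraries. By titles it was lowest in HL at 20 h, with 56.3, 117, 118 and 133 CPM, and highest in HL at 8 h, with 161, 177 and 200 CPM (within HL edgeR adjusted p = 0.428). By library number Pdia6 was called with the treatments together (edgeR adjusted p = 0.047, where 5.42% of 13198 genes were called) and within LH (edgeR adjusted p = 0.017, 1.05% of genes). JTK_CYCLE, from its exact null distribution, gave it P = 0.0085 in LH (1.36% of genes called). No other member was called by library number: within HL 0.394%, within HH 0.803%, for different time courses 0%, and by JTK_CYCLE in HL 1.06% and in HH 1.26% of all genes were called. Under that naming it was 167, 177 and 200 CPM in LH at 0 h, 156, 161 and 182 CPM at 4 h, 120, 127, 128 and 142 CPM at 8 h, 117, 118, 133 and 160 CPM at 12 h, 56.3 CPM in the 1 library at 16 h and 118, 130, 153 and 157 CPM at 20 h. Without the group of that 1 library, chosen after the data were seen, the adjusted p was 0.0475 with the treatments together and 0.488 within LH (edgeR), and the JTK P was 0.0276, so that the call within LH rests on 1 library. The library with 56.3 CPM also had the lowest Manf (18.9 CPM) and the lowest Creld2 among libraries of at least 1000000 counts (4.13 CPM).

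Herpud1, Calr and Hsp90b1 had no unadjusted p under 0.05 in these tests. Herpud1 in LH was 82.5, 88.5 and 98.7 CPM at 0 h and 117, 141, 153 and 169 CPM at 12 h, groups that did not overlap (ratio of means 1.61), but its libraries at 4 h reached from 76.3 to 215 CPM and those at 20 h from 68.0 to 197 CPM (within LH edgeR adjusted p = 0.324). Calr in HL was 1268, 1380.5 and 1726 CPM at 0 h and 870.1, 886, 931 and 1699 CPM at 4 h, so that 1 library at 4 h lay among those at 0 h and the others below them (within HL edgeR adjusted p = 0.865). The smallest p of Hsp90b1 was 0.249, for different time courses (edgeR, adjusted p = 0.651).

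The spread between libraries of 1 group was larger than the counting error for each of the 10 genes. Over the 61 libraries of at least 1000000 counts, the SD within groups on the log2 scale ranged from 0.16 for Hspa5 to 0.46 for Creld2, which is 2.40 times (Sdf2l1) to 12.8 times (Hsp90b1) the SD that counting alone gives. The highest library had 1.99 times the level of the lowest for Calr and 6.57 times for Creld2. The 2 count files of a library are called sequencing runs here. Their titles differ by the suffix bis alone, and the study says that the library was processed 2 times. Whether the second was a new preparation is not said there. Compared in the 55 libraries with at least 1000000 counts in each, the 2 runs gave correlations of 0.66 (Creld2) to 0.99 (Hsp90b1). These correlations are over all 55 libraries and so include differences between groups. Whether the spread within a group came from the cultures, the RNA, the library preparation or the sequencing run was not tested.

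The pairs of the 10 genes went both ways over the libraries. Over 61 libraries (log2 of CPM + 1), the Pearson r of their 45 pairs had a median of 0.03, and 22 pairs had a p under 0.05 after adjustment over the 45 (two-sided permutation test, 100000 resamples, smallest possible p 1e-05), 14 with a positive r and 8 with a negative r. These are 48.9% of the pairs, and the smallest r that passed was 0.29 in size. Of the pairs of a member with 1 of 7772 other genes with a mean of at least 10 CPM, 41.7% had an r of at least that size, from 27.4% for Sdf2l1 to 51.4% for Hsp90b1, so that the number of pairs passed is near that of other genes and is not a result about the members. With Spearman's rho 16 pairs passed. The libraries share 1 cell line, and values of CPM within a library share 1 total. Sets of genes with positive r, grouped after the values were seen, are described in turn. The large chaperones formed the first: r was 0.83 for Hsp90b1 and Calr (rho 0.74), 0.76 for Hspa5 and Hsp90b1 (rho 0.61) and 0.67 for Hspa5 and Calr (rho 0.59), each with an adjusted p of 4.09e-05 from permutation, and 0.61 for Hsp90b1 and Pdia4 (rho 0.53). Without the 2 libraries farthest from the median these were 0.79, 0.63, 0.59 and 0.52, and as deviations from group means 0.85, 0.82, 0.62 and 0.56. Those 2 libraries were ranked, for each pair, by the gene that comes first in the opening list. They can therefore differ between pairs, and libraries extreme in the other gene alone were kept. Pdia4 was tied less closely to the others: its r was 0.46 with Hspa5 and 0.39 with Calr, and 0.23 and 0.25 without the 2 farthest libraries.

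Pdia6, Manf and Creld2 formed the second set. Pdia6 and Manf had r = 0.68 (rho 0.59), Creld2 and Manf 0.65 (rho 0.49) and Pdia6 and Creld2 0.55 (rho 0.41), each with an adjusted p of 4.09e-05 for r from permutation. Sdf2l1 went with Manf (r = 0.45, rho 0.28, adjusted p = 0.0025 for r and 0.067 for rho, permutation) and with Pdia6 (r = 0.32, adjusted p = 0.0387, permutation). Its r with Creld2 was 0.16 (rho -0.002, adjusted p = 0.303 for r, permutation). With Hspa5 these 4 genes had an r between -0.21 (Manf) and 0.25 (Pdia6, rho 0.37), and of these only the rho of Pdia6 passed (adjusted p = 0.0116, permutation). On TMM-scaled values the r with Hspa5 was -0.41 for Manf, -0.35 for Sdf2l1 and -0.02 for Pdia6. For Sdf2l1 the sign differed between treatments, with 0.32 in HL, -0.65 in LH and -0.03 in HH, a difference that was not tested. Without the 2 farthest libraries the first 3 values were 0.60, 0.53 and 0.37.

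Herpud1 and Dnajb9 formed the third, with r = 0.61 (rho 0.49, adjusted p = 4.09e-05 for r, permutation), and both ran against large chaperones. Dnajb9 had r = -0.54 with Pdia4, -0.46 with Calr and -0.44 with Hsp90b1, the last with an adjusted p of 0.0507 for rho (permutation), and the r with Calr was -0.26 on TMM-scaled values and -0.17 in LH. Herpud1 had r = -0.66 with Calr (rho -0.63) and -0.60 with Hsp90b1 (rho -0.61), each with an adjusted p of 4.09e-05 from permutation, and the sign was the same in HL (-0.71 and -0.69), in LH (-0.64 and -0.69) and in HH (-0.74 and -0.40). With Hspa5 it was weaker, r = -0.30 (adjusted p = 0.043, permutation), and near 0 on TMM-scaled values (-0.02), while Hsp90b1 (-0.48) and Calr (-0.42) kept the sign there. Without the 8 libraries with the highest summed PERK-ATF4 targets (described further on, 53 libraries left, chosen after the data were seen), Herpud1 had r = -0.60 with Calr, -0.48 with Hsp90b1 and 0.35 with Dnajb9. Its r with Pdia4 was -0.37 over the 61 libraries (rho -0.21, adjusted p = 0.0113 for r and 0.179 for rho, permutation) and 0.002 without those 8, so that this relation rests on them. The library with the most Herpud1, LH collection 2 replicate 1, had 215 CPM of it and 45.0 CPM of Dnajb9, the most of any library, beside 798 CPM of Hsp90b1, 1168 CPM of Calr and 1038 CPM of Hspa5. This Hspa5 level was the highest of the 61 libraries, so that this library did not have low chaperones throughout. The 4 libraries with the least Hsp90b1 held 130 CPM (HH collection 6 replicate 3), 186 CPM (HL collection 2 replicate 3), 169 CPM (LH collection 4 replicate 2) and 105 CPM (HL collection 2 replicate 1) of Herpud1, and the 4 with the most Hsp90b1 held 71.4 to 103 CPM. Taking 1 gene from each sequencing run left r at -0.61 and -0.59 for Hsp90b1 and Herpud1, and at 0.83 and 0.84 for Hsp90b1 and Calr. The 2 genes then come from different runs but still from the same library. In the second set r fell by this change. It was 0.55 and 0.48 for Pdia6 and Manf, 0.50 and 0.47 for Creld2 and Manf and 0.38 and 0.37 for Pdia6 and Creld2.

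**Figure D3:**
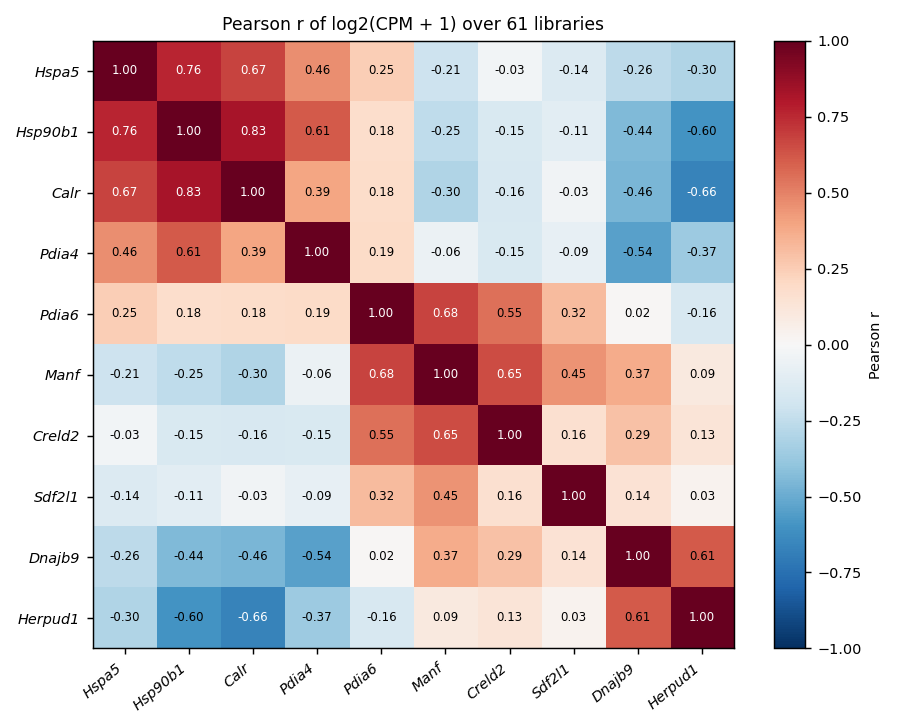
Pearson r of log2(CPM + 1) between the 10 genes (both axes) over 61 libraries of at least 1000000 counts; red is positive, blue is negative and the number in a cell is r. Hspa5, Hsp90b1 and Calr form a red block (0.67 to 0.83) with Pdia4 paler at its edge (0.39 with Calr). Pdia6, Manf and Creld2 form a weaker one, beside which Sdf2l1 is paler (0.45 with Manf, 0.16 with Creld2). The cells of Herpud1 with Hsp90b1 (-0.60) and Calr (-0.66) are blue.

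The members were not the nearest genes to each other. Among 7772 other genes with a mean of at least 10 CPM, 27 had a higher r with Hspa5 than its closest member (Hsp90b1), 2 with Calr, 106 with Hsp90b1 and 58 with Creld2, and the numbers for the other members were 123 to 354. The 8 non-members with the highest Spearman rho with Hspa5 were Itgb1 (0.74), Phf21a (0.71), Pinx1 (0.71), Ccdc80 (0.68), Iqgap1 (0.68), Top1 (0.68), Utrn (0.66) and Ccdc88a (0.66), over 61 libraries. Itgb1 is the beta 1 integrin, Ccdc80 a secreted matrix protein, Top1 DNA topoisomerase I and Utrn utrophin. Hsp90b1 (0.61) and Calr (0.59) came after 28 and 40 non-members.

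The other genes of the pathway were taken as fixed lists. None of their genes passed in a comparison of levels, as for all genes. Over the collections edgeR called 1.65% of all genes with the treatments together, 0.301% within HL and 2.93% within LH, and with lists this short a count of 1 or 2 is not set apart from these shares. Of 23 other ER chaperones and folding enzymes tested, 1 passed with the treatments together, Lman1 (ERGIC-53, a cargo receptor), with 314 CPM at 0 h and 204 CPM at 20 h in HL (edgeR adjusted p = 0.0315, within HL 0.0255). Of 19 ERAD genes, 1 passed within LH, Derl1, a derlin of the retrotranslocation complex, with 88.6 CPM at 0 h and 137.5 CPM at 4 h (edgeR adjusted p = 0.0446). Of 20 genes of ER translocation and signal peptide cleavage, 1 passed, Ssr1 (TRAP alpha), with 263.6 CPM at 0 h and 153 CPM at 4 h in LH (edgeR adjusted p within LH 0.0101). Of the 12 sensors and transcription factors, among them Atf6, Ern1, Xbp1, Eif2ak3, Atf4 and Ddit3, none passed in any of these tests (edgeR), and 3 had an unadjusted p under 0.05 with the treatments together.

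Of 20 PERK-ATF4 targets, 2 passed, Ppp1r15a (GADD34, which restores translation) and Nupr1, a stress-induced nuclear protein. In LH Ppp1r15a was at 9.5 CPM at 0 h, 48.8 CPM at 4 h and 10.3 CPM at 8 h (edgeR adjusted p within LH 0.0030), and Nupr1 was at 64.2, 579 and 58.7 CPM (edgeR adjusted p within LH 0.0197). The 3 libraries at 4 h reached from 0 to 136 CPM for Ppp1r15a and from 29.0 to 1576 CPM for Nupr1, and they include the library with 104912 counts. Without it the adjusted p within LH was 0.00114 for Ppp1r15a, 0.0114 for Nupr1, 0.00337 for Derl1 and 0.0393 for Ssr1 (edgeR). By library number it was 0.123, 0.269, 0.936 and 0.538 for the same genes, and 0.114 for Lman1 within HL (edgeR). With the treatments together, by library number, Lman1 and Ssr1 still passed, with an adjusted p of 0.000101 and 0.00347 against 0.0315 and 0.0142 by titles, and Ppp1r15a and Nupr1 did not, with 0.324 and 0.298 against 0.0218 and 0.0228 (edgeR). The immune markers Ptprc, Csf1r and Lyz2, 3 of the 4 of their list that were tested, also passed within LH (edgeR adjusted p = 0.0077, 0.00054 and 0.0030), where the library with 104912 counts stands at 4 h. Without it their adjusted p was 0.282, 0.0108 and 0.198, and by library number 0.880, 0.682 and 0.536 (edgeR). The part of these markers in the changes within LH was not tested. In the comparison of levels the 20 genes had a median log2 fold change of -0.14 for LH against HL and -0.23 for HH against HL (median of all genes 0.0013 and 0.0023). The smallest p were those of Trib3, a pseudokinase induced by ATF4 (-0.64 for LH against HL, SE 0.18, edgeR adjusted p = 0.472, and -0.47 for HH against HL, SE 0.18, adjusted p = 0.594). Of the sensors and factors, Atf4 itself had -0.59 for HH against HL (SE 0.25, edgeR adjusted p = 0.628). None of these differences passed.

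The sums of these lists were then set beside the 10 genes over the 61 libraries, 70 pairs in all, of which 36 had an adjusted p under 0.05 for r (two-sided permutation test, adjusted over the 70). These are 51.4% of the pairs, and the smallest r that passed was 0.30 in size. Of genes that are neither members nor in the list, 47.2% on average had an r of at least that size with a list's sum, from 23.6% for ERAD to 54.2% for the secreted collagen cargo, so that this number too is near that of other genes. Herpud1 went with the summed PERK-ATF4 targets, r = 0.78 (rho 0.59, adjusted p = 6.36e-05 for r, permutation), and 13 of the 15 targets with a mean of at least 10 CPM had a positive r with it. The sum ran from 767 to 3327 CPM. The libraries with the highest sums, LH collection 2 replicate 1 (3327 CPM), HL collection 5 replicate 2 (2662 CPM), HL collection 2 replicate 3 (2297 CPM) and HL collection 6 replicate 3 (2207 CPM), had 215, 180, 186 and 196 CPM of Herpud1, against a median of 110 CPM over all libraries. Ddit3 is in this list and in that of the sensors. Without the 8 libraries with the highest sums (3 of HL, 4 of LH and 1 of HH, from 1317 CPM up), r was 0.40 for Herpud1 and 0.06 for Dnajb9 over 53 libraries, so that the relation of Dnajb9 rests on those libraries. Within a treatment the r of Herpud1 was 0.88 (HL), 0.78 (LH) and 0.52 (HH). Dnajb9 went the same way (r = 0.55, rho 0.26, adjusted p = 6.36e-05 for r and 0.089 for rho, permutation), while Hsp90b1 (-0.42), Calr (-0.42) and Pdia4 (-0.44) went against the sum and Hspa5 had -0.02. Without those 8 libraries Hsp90b1, Calr and Pdia4 had -0.19, -0.22 and -0.10, and on TMM-scaled values over the 61 libraries -0.24, -0.13 and -0.25.

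**Figure D4:**
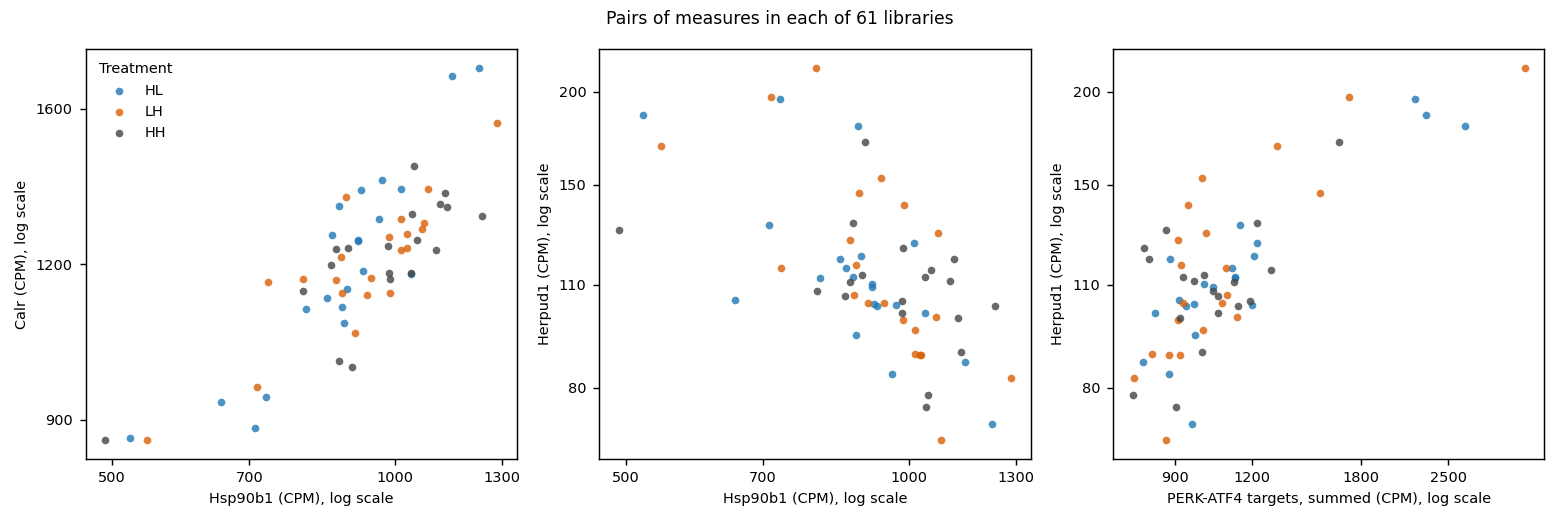
Each point is 1 of 61 libraries, coloured by treatment, on log axes: Calr against Hsp90b1 (left), Herpud1 against Hsp90b1 (middle) and Herpud1 against the summed CPM of 20 PERK-ATF4 targets (right). Calr rises with Hsp90b1 (r = 0.83), Herpud1 falls with it (r = -0.60), and Herpud1 rises with the targets (r = 0.78), with libraries of HL, LH and HH along each cloud.

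The large chaperones went with the secreted cargo. The sum of 10 genes of collagens, fibronectin (Fn1), Sparc and the collagen chaperone Serpinh1 ran from 17338 to 56216 CPM and had r = 0.74 with Hsp90b1 (rho 0.45), 0.68 with Calr (rho 0.46), 0.60 with Pdia4 (rho 0.40) and 0.55 with Hspa5 (rho 0.41), each with an adjusted p of at most 0.00022 for r from permutation. The r of Hspa5 was 0.13 in LH alone and 0.32 on TMM-scaled values. Of the 10 cargo genes, 2 passed over the collections with the treatments together (1.65% of all genes), Col1a1 (edgeR adjusted p = 0.0319, by library number 3.01e-07) and Col3a1 (0.0495, by library number 0.00244, without the library of 104912 counts 0.0562). In LH the mean of Col1a1 was 8322 CPM at 8 h and 4420 CPM at 4 h. The sum had r = -0.52 with Dnajb9 and -0.46 with Herpud1, and -0.32 and -0.05 without the 8 libraries of highest PERK-ATF4 sum, where Hsp90b1, Calr, Pdia4 and Hspa5 had 0.61, 0.59, 0.42 and 0.63. Pdia6 went with the other ER chaperones and folding enzymes, r = 0.87 (rho 0.83), and each of the 21 such genes with a mean of at least 10 CPM had a positive r with it. Manf (0.65), Creld2 (0.49) and Sdf2l1 (0.46) went with the same sum, and these 4 genes also went with the ER translocation genes, with r from 0.51 (Creld2) to 0.72 (Pdia6). On TMM-scaled values Sdf2l1 had 0.11 with the ER chaperones and 0.34 with the ER translocation genes, and Pdia6 had 0.43 with the latter. Without the 2 libraries farthest from the median Creld2 had 0.30 with the ER chaperones. The sum of the cytosolic heat shock chaperones had r = 0.53 with Hspa5 (rho 0.22, adjusted p = 0.157 for rho, permutation) and -0.59 with Manf (rho -0.73), but the sum does not stand for its genes: of the 16 with a mean of at least 10 CPM, 8 had a positive r with Hspa5 (median 0.03) and 7 with Manf (median -0.15). Without the 2 farthest libraries the r with Hspa5 was 0.27. Of the 18 heat shock genes, 5 passed over the collections with the treatments together, where edgeR called 1.65% of all genes: Cryab, Hspa1b, Dnaja1, Hspa4l and Hsph1. Within LH 6 passed (2.93% of all genes), among them Hspd1, Cryab, Hspa4l and Hspa1b, and within HL and HH 0 passed, with 5 and 0 at an unadjusted p under 0.05 (edgeR). By library number the adjusted p of the first 5 with the treatments together were 0.335, 0.0642, 0.0699, 0.382 and 0.254 in that order, and those of the 6 within LH ran from 0.0904 to 0.354 (edgeR).

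**Figure D5:**
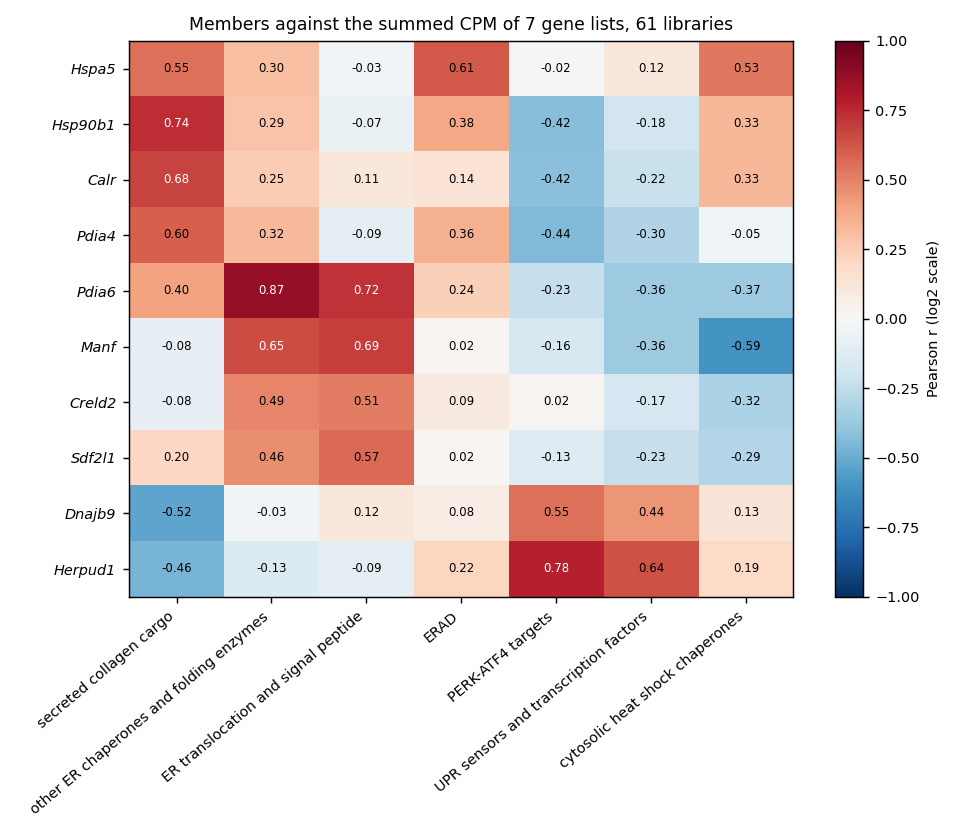
Pearson r over 61 libraries between each of the 10 genes (y axis) and the summed CPM of 7 fixed gene lists (x axis), both on a log2 scale; red is positive, blue is negative and the number in a cell is r. The collagen column is red for Hsp90b1 (0.74) and Calr (0.68), the column of other ER chaperones for Pdia6 (0.87), and the column of PERK-ATF4 targets for Herpud1 (0.78) and Dnajb9 (0.55).

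Measures of the libraries moved with these sets (ranges over 62 libraries, r over 61). The share of counts on ribosomal protein genes, 3.68% to 7.15%, had r = -0.58 with Hsp90b1, -0.47 with Pdia4 and 0.56 with Manf. The share on mitochondrial genes, 1.29% to 3.60%, had r = 0.54 with Pdia6, and the number of genes above 5 CPM, 8225 to 9364, had r = 0.66 with Pdia6 and -0.37 with Herpud1. The logarithm of the total had an r between -0.20 (Creld2) and 0.28 (Hsp90b1) with the 10 genes. The summed fibroblast markers, of which Col1a1, Col1a2, Col3a1 and Fn1 are also in the collagen list, had r = 0.62 with Hsp90b1 and -0.39 with Herpud1. The summed endothelial markers, nearly all of it Kdr, had r = -0.65 with Herpud1 (rho -0.43), 0.49 with Pdia4, -0.49 with Dnajb9 and 0.46 with Hsp90b1, while the medians of the 5 other genes of that list were 0 CPM. The summed immune markers had r = 0.39 with Dnajb9 and 0.32 with Herpud1. The summed chondrocyte markers, nearly all of it Sox9, had r = 0.41 with Hspa5 (rho 0.08), 0.36 with Herpud1 (rho 0.31) and 0.30 with Dnajb9 (rho 0.11). The part of these measures in the correlations was not tested.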

How the data were processed

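3′DGE RNA-seq libraries of HL (21), LH (22) and HH (19) were analysed. Per the labels and the submitters' processing notes, bcl2fastq, STAR 2.6.0a, HTSeq 0.9.1 and mm10 were named. The authors deposited whole-number counts per Ensembl gene, unnormalized, in 121 files, and the 2 runs of 59 libraries were summed. Closing lines of the counter without a gene (unassigned reads 18.4% to 29.1%, median 22.3%, of a library) were left out. Of 31053 identifiers, 30934 matched a symbol. Genes with at least 1 CPM in 3 libraries were tested with edgeR 4.0.16 in R 4.3.3 (quasi-likelihood, TMM, treatment and collection as terms, or 18 group means), with Benjamini-Hochberg adjustment and a threshold of 0.05. DESeq2 1.42.0 was the alternative on the same counts. JTK_CYCLE was rewritten with its exact null distribution (period 24 h, phases in steps of 2 h, P under 0.01). The scripts were tested on simulated data. Standard errors were derived from the estimate and its F value. Correlations used scipy 1.17.1. Depth ranged from 104912 to 11619095 counts per library, and single counts in the smallest library are worth 9.53 CPM.

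All 10 members are named. Of each list, up to 4 genes per test past the threshold (or the 2 of smallest p) could be named, and the 8 genes most like Hspa5 by Spearman's rho. The members and lists were chosen with earlier results of these data known. Alternatives were names by library number, each run alone, other scalings, filters and tools, a replicate block and leaving out replicates. Correlation alternatives, names by number without groups of 1 library and the exclusion of the 8 libraries of highest PERK-ATF4 sum were added after seeing the data.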

Additional observations from a re-analysis of the deposited data

Results flagged for a closer look

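Among the 90 sets of 4 libraries (9 groups of 4, 10 genes), 6 sets (6.67%) had 1 library far from the other 3 by Dixon's criterion, and chance flags about 1 in 20. They came from 4 libraries. HL collection 2 replicate 4 accounts for 3 of them: it had 838 CPM of Hspa5 where the others of its group had 654 to 669 CPM, 1699 CPM of Calr against 870.1 to 931 CPM and 26.4 CPM of Sdf2l1 against 24.5 to 24.8 CPM. LH collection 4 replicate 2 had 867 CPM of Calr against 1134 to 1139 CPM. LH collection 6 replicate 1 had 29.7 CPM of Dnajb9 against 15.9 to 17.7 CPM. HH collection 1 replicate 4 had 18.03 CPM of Creld2 against 11.1 to 11.6 CPM.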

How the results depend on the processing

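Of 720 alternative values of the log2 fold changes of the 10 genes, 652 kept their sign, and 64 of the 68 with the other sign belonged to a difference smaller than its standard error. By library number (values without groups of 1 library in brackets), LH against HL was 0.0798 (0.0600) for Calr, -0.105 (-0.119) for Pdia4, -0.103 (-0.0468) for Pdia6, -0.298 (-0.293) for Sdf2l1, 0.00661 (0.0711) for Creld2, -0.192 (-0.122) for Manf and 0.0701 (0.0976) for Herpud1. HH against LH was 0.0645 (0.0591) for Sdf2l1 and, by number, -0.0109 for Hsp90b1. With the second run alone LH against HL was -0.0652 for Pdia6 and 0.0512 for Herpud1, HH against HL was 0.0215 for Hspa5, and HH against LH was 0.00287 for Hspa5 and 0.0423 for Calr. With the first run alone Creld2 was 0.0738 (LH against HL) and Manf -0.00676 (HH against LH). Without libraries under 1000000 counts LH against HL was 0.00239 for Creld2 and 0.0153 for Herpud1, and Dnajb9 was 0.00410 for HH against HL. With library totals in place of TMM LH against HL was 0.0104 for Creld2 and 0.0268 for Herpud1, and HH against HL was 0.0463 for Hspa5 and 0.0577 for Dnajb9. Without a term for collection Creld2 (LH against HL) was 0.000538 and Hspa5 (HH against HL) 0.000504. Dnajb9, HH against HL, was 0.00335 with RLE size factors and 0.00504 with DESeq2. Leaving out 1 replicate number of a treatment gave ranges that include 0 for these: LH against HL, Hspa5 -0.0107 to 0.0714, Calr -0.0730 to 0.0166, Dnajb9 -0.0341 to 0.222, Creld2 -0.0807 to 0.0407 and Herpud1 -0.166 to 0.113. For HH against HL they were Hspa5 -0.0461 to 0.0202, Hsp90b1 -0.00570 to 0.117, Dnajb9 -0.100 to 0.101, Creld2 -0.000737 to 0.166 and Herpud1 -0.193 to 0.00622. For HH against LH they were Hspa5 -0.0873 to 0.00102, Hsp90b1 -0.0515 to 0.0667, Calr -0.0767 to 0.0122, Dnajb9 -0.193 to 0.00201, Manf -0.0459 to 0.0821 and Herpud1 -0.186 to 0.0270.

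Of the alternative counts of members called, 14 moved from 0. By library number Pdia6 was the 1 gene called with the treatments together (also 1 without groups of 1 library), within LH and by JTK_CYCLE in LH (5.42%, 1.05% and 1.36% of all genes were called there). Within LH, 1 gene was called with the second run alone (Dnajb9, 7.11% of all genes), with DESeq2 (Hspa5, 5.8%) and without LH replicate 4 (Hspa5, 5.35%, a range of 0 to 1 over replicates left out), and 2 without a filter on low counts (Dnajb9 and Herpud1, 6.05%). With unadjusted thresholds 1 gene was called within HH (2.92%) and 1 for different time courses (3.41%), Sdf2l1 in both. For different time courses DESeq2 called 1 (Sdf2l1, 1.63%), and the fit without a filter called 1 (Dnajb9, 5.19%). In HH an edgeR cosinor fit called 1 gene (Dnajb9, 2.92%), also 1 with a replicate block (2.8%). The 20 correlations given alternatives were picked after the values were seen. Of their 162 alternative values none changed sign and 37 moved, but among pairs not picked signs did change. Dnajb9 and Manf had r = 0.37 over 61 libraries (adjusted p = 0.0114, permutation) and -0.17 in LH. For Pdia4 and Herpud1 r was -0.37 (adjusted p = 0.0113, permutation), and 0.002 without the 8 libraries of highest PERK-ATF4 sum. The causes were not tested.

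By titles, libraries of the same collection were compared between treatments. The 53 same-numbered pairs had a median r of -0.02 (-0.48 to 0.66, 14 over 0.1). The 159 other pairs had a median of 0.0031 (-0.58 to 0.62, 45 over 0.1). Pairing under the names by library number, or across the collections of a treatment, was not tested. The replicate block turned the sign of Manf, HH against LH, to -0.000480, and with it edgeR called 0 members in the 8 tests of levels and collections, while the cosinor fit in HH kept its 1 call (Dnajb9).

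Depth limits Creld2, Dnajb9 and Sdf2l1 in part, with medians of 71, 116 and 151 counts per library. Their SD within groups was still 2.52, 2.74 and 2.40 times that of counting alone. Groups of 2 to 4 libraries from 1 line limit the time tests, and the naming of 40 libraries of HL and LH limits their comparison.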
